A study of Homo sapiens with 4 samples.

Results

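Cytochrome P450 and UDP-glucuronosyltransferase (UGT) genes were described in A549 cells with and without induction of A-FOS. The members are the protein-coding genes whose symbol has the form of a P450 gene (CYP with a family number, a subfamily letter and a gene number) or of a UGT gene of families 1 to 3, without CYP1A1, CYP1B1 and CYP51A1. They are 73 of the 58051 genes counted, 52 P450 and 21 UGT genes. The rule uses symbols and no measured value, but it was set with earlier results of these data known.

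A549 is an established human lung carcinoma cell line. All 4 libraries came from A549 cells that carry an A-FOS gene integrated by piggyBac and switched on by doxycycline. The sample titles call this a knock-in, while the design text has the insertion at random places, and the promoter that drives it is not given in the sources used here. A-FOS is a dominant-negative FOS protein that pairs with JUN proteins and keeps them off DNA, and the series asks how FOXA1 and AP-1 bind together. One group had no treatment (minus Dox, n = 2) and the other had doxycycline at 1 µg/mL (plus Dox, n = 2), for a time not given in the sources used here. The labels do not say whether the cells are 1 clone, nor whether the libraries of a group are separate cultures, so that p-values measure only the spread between these libraries, which may be technical. Doxycycline and A-FOS cannot be told apart in this design.

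P450 enzymes are heme proteins that insert an oxygen atom into fatty, steroidal and foreign molecules, with electrons passed on by P450 reductase (POR) in the endoplasmic reticulum or by ferredoxin (FDX1) in mitochondria. UGT enzymes then couple such molecules to glucuronic acid, taken from UDP-glucuronic acid, which makes them soluble enough to be excreted. Both families are most abundant in liver, and lung epithelium is known for a smaller set of them. In the UGT1A family several first exons, each with a promoter of its own, are spliced to 1 common set of later exons.

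Total counts ranged from 31104964 to 40526912 per library. FOS, whose leucine zipper A-FOS carries, had 1.36 and 1.52 CPM (counts per 1000000 counts of a library, with libraries scaled by TMM) in minus Dox and 48.6 and 50.9 CPM in plus Dox. Keratins were abundant in both groups, and the summed level of the 10 epithelial and lung markers was 12620 and 12960 CPM in minus Dox and 6485 and 6290 CPM in plus Dox, with 5 of 7 tested lower. The lung markers NKX2-1, SFTPB and SFTPC had at most 6 counts in any library. NAPSA, also a lung marker, had 93 and 84 counts in minus Dox and 69 in both plus Dox libraries. It did not pass (log2 fold change −0.31, edgeR adjusted p = 0.256). Of 8 hepatocyte markers 3 were tested, with summed levels of 49.9 and 48.9 CPM in minus Dox and 44.6 and 44.7 CPM in plus Dox, 1 higher, 1 lower and 1 not past. ALB, the albumin gene, had 11 and 6 counts in minus Dox, against 0 and 1 in plus Dox, and was not tested, while SERPINA1 went the other way, from 4 and 2 counts to 41 and 44 (log2 fold change 3.82, edgeR adjusted p = 5.33e-07). Fibroblast markers summed to 39.7 to 49.6 CPM, and endothelial, airway and leukocyte markers to at most 2.90 CPM in any library, with 0 of 5 leukocyte markers tested and CD3E and MS4A1 at 0. In bulk RNA, fewer cells of a kind and less RNA per cell cannot be told apart, and the part of these markers in the results was not tested.

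Most members were scarcely expressed. No count was seen in any library for 25 of the 73, which allows up to 3 counts per library or 0.0800 to 0.0894 CPM, for counting error only. Another 19 had counts below the filter, and 29 were tested, of which 24 are P450 and 5 are UGT genes. Of these 29, 18 reached the filter's minimum in both groups, 5 only in minus Dox, 5 only in plus Dox, and 1 in 1 library of each group. Reaching the minimum in 1 group only favours a difference, though CYP2E1 reached it in minus Dox only and had overlapping groups. Counts over the tested members therefore describe them and support nothing.

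In edgeR's quasi-likelihood test, adjusted by Benjamini-Hochberg over all genes, 9 tested members rose with doxycycline, 9 fell and 11 did not pass, at a threshold of 0.05. Over all 18046 genes tested 56.9% passed, 28.4% higher and 28.4% lower, so that the 62.1% of tested members past the threshold is near the background. Of the protein-coding genes tested 65.5% passed. The groups did not overlap in 24 of 29 members, against 77.0% of all genes tested. The members that rose were all P450 genes and those that fell were 4 P450 and 5 UGT genes. Changes of at least 2-fold past the threshold were seen in 12 of 29 tested members (41.4%), against 12.7% of all genes tested. Among the 16 members with a mean of at least 1 CPM over the 4 libraries, 6 rose, 5 fell and 5 did not pass. These 68.8% past the threshold are also near the background, 65.2% of the 14424 genes at that level, and 5 members (31.2%) passed with at least 2-fold, against 10.2% of those genes. The median log2 fold change was 0.10 over the tested members and 0.00 over all genes tested. With library size as the only scaling, which moves the median of all genes from 0.00 to 0.22, 13 P450 genes were higher and 3 lower.

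**Figure D1:**
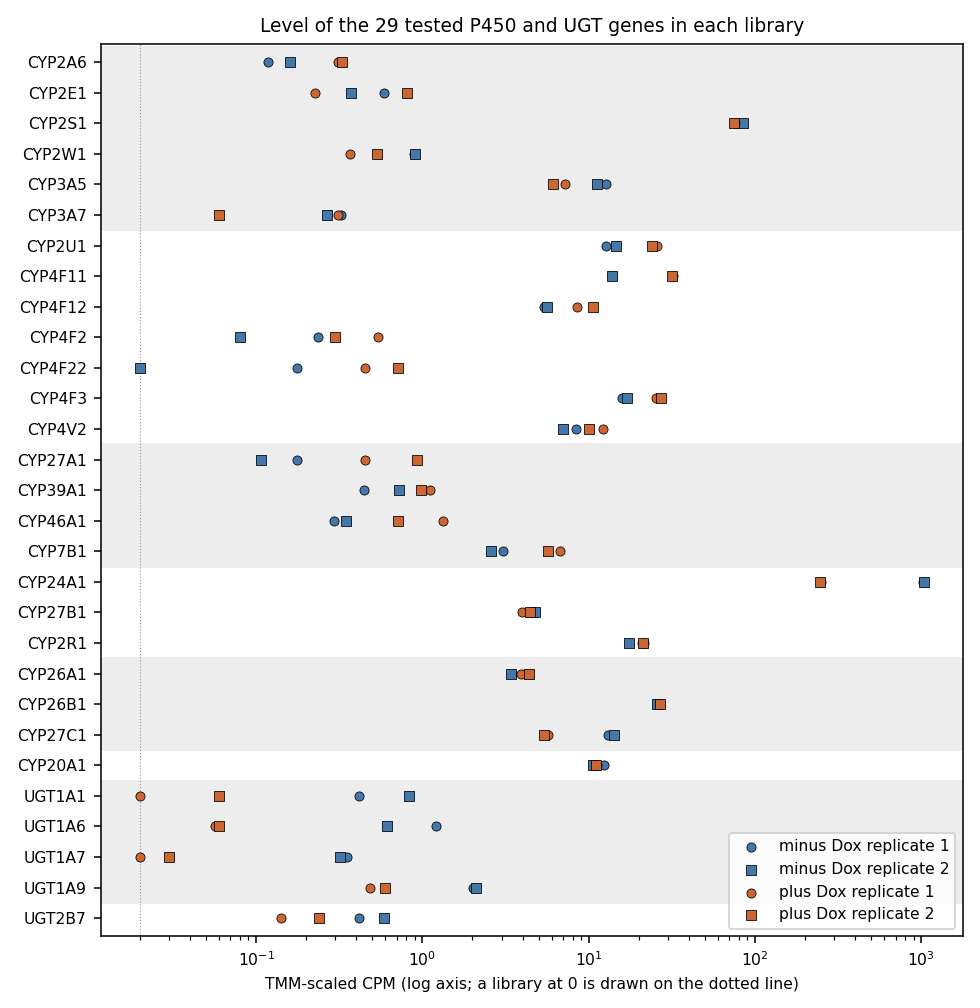
Levels of the 29 tested members in each library, in TMM-scaled CPM on a log axis, grouped by role (bands, from xenobiotic P450s at the top to UGT2 at the bottom). Circles are replicate 1 and squares replicate 2, blue for minus Dox and orange for plus Dox. CYP24A1 stands at 1029 and 1038 CPM in minus Dox and at 249 and 245 CPM in plus Dox, and the UGT genes at the bottom lie at or below 2.11 CPM.

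CYP24A1, the mitochondrial 24-hydroxylase that starts the breakdown of active vitamin D, was the most abundant member by far and fell. Of all member counts it held 81.0% and 81.1% in the minus Dox libraries, against 47.6% and 47.5% in plus Dox. The gene (ENSG00000019186, chromosome 20, 54153449 to 54173973 in hg38, as are all gene positions, from GENCODE 29) had 1029 and 1038 CPM in minus Dox and 249 and 245 CPM in plus Dox. The groups were far apart beside the difference between replicates, and the fitted level was 4.18-fold lower with doxycycline (log2 fold change −2.06, SE 0.04, edgeR adjusted p = 1.04e-32). Its call held in each of the 12 settings run, between −2.08 and −1.85. Counts of all members together went from 0.118% of a library in both minus Dox libraries to 0.0563% and 0.0557% in plus Dox. Without CYP24A1 the direction was the opposite, with 0.0224% and 0.0223% of a library in minus Dox, against 0.0295% and 0.0293% in plus Dox.

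Neither of the other vitamin D enzymes passed the test. CYP2R1, the 25-hydroxylase that makes the circulating form in liver, had 20.9 and 17.4 CPM in minus Dox and 21.5 and 21.3 CPM in plus Dox, just above, and did not pass (log2 fold change 0.16, SE 0.09, edgeR adjusted p = 0.116). Scaled by library size alone it passed (0.38, edgeR adjusted p = 2.84e-04), as it did without minus Dox replicate 1 (0.29, 0.00711). CYP27B1, which makes the active hormone, had 4.43 and 4.74 CPM in minus Dox and 3.95 and 4.44 CPM in plus Dox, values that overlap (log2 fold change −0.13, SE 0.16, edgeR adjusted p = 0.508). The receptor of the hormone, VDR, had 25.4 and 25.9 CPM in minus Dox, just below the 28.6 and 28.2 CPM in plus Dox, and an edgeR adjusted p of 0.0864, but 4.78e-05 with library size only. Per kilobase of exon, CYP24A1 was the highest member in both groups, at 260 CPM per kb in minus Dox and 62.2 in plus Dox, followed by CYP2S1 at 28.5 and 26.1 CPM per kb.

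P450s of retinoid metabolism moved in 1 of 3 tested members, where 56.9% of all genes tested moved. CYP27C1, which desaturates vitamin A (ENSG00000186684, chromosome 2, 127184120 to 127220078), had 13.0 and 14.2 CPM in minus Dox and 5.68 and 5.39 CPM in plus Dox. Both plus Dox libraries were below both others, and it fell by 1.30 on the log2 scale (SE 0.12, edgeR adjusted p = 8.35e-12). The retinoic acid hydroxylases were close to level. CYP26B1 had 26.1 and 25.7 CPM in minus Dox and 26.7 and 26.9 CPM in plus Dox, a log2 fold change of 0.05 (SE 0.07) that passed only with library size as the scaling (0.27, edgeR adjusted p = 0.00215). CYP26A1 had 4.17 and 3.41 CPM in minus Dox and 3.92 and 4.35 CPM in plus Dox, with overlapping groups (0.13, SE 0.17). CYP26C1, the third hydroxylase, had 1 and 0 counts in minus Dox, against 3 and 1 in plus Dox.

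P450s of fatty acid and eicosanoid metabolism rose in 6 of 7 tested members, with 0 lower, where 28.4% of all genes tested rose. Their median log2 fold change was 0.86, against 0.00 over all genes. CYP4F22 and CYP4F2 reached the filter's minimum in plus Dox only, and the 5 others, over it in both groups, all rose, with a median of 0.79. Most of these enzymes add a hydroxyl group at or near the end of fatty acid chains or of leukotrienes. No tested gene of the group was lower at an unadjusted p under 0.05 in edgeR, and none was called lower in DESeq2. CYP2U1 (chromosome 4, 107931369 to 107953457), a hydroxylase of long-chain fatty acids, had 12.7 and 14.6 CPM in minus Dox and 25.6 and 24.0 CPM in plus Dox, a log2 fold change of 0.86 (SE 0.09, edgeR adjusted p = 1.84e-10). In the annotation 8.61% of its exon bases lie opposite other genes. CYP4V2, also a fatty acid hydroxylase, had 8.36 and 7.04 CPM in minus Dox and 12.1 and 10.1 CPM in plus Dox (0.53, SE 0.12, edgeR adjusted p = 3.06e-04). The groups did not overlap in either gene, nor in the other 5, but 77.0% of all genes tested also had groups apart.

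The remaining 5 belong to the CYP4F genes, which lie together on chromosome 19 between 15508493 and 15934867. CYP4F11 (ENSG00000171903, 15912367 to 15934867), a hydroxylase of fatty acids and vitamin K, had 13.8 CPM in both minus Dox libraries and 32.2 and 31.6 CPM in plus Dox, 2.31-fold higher (log2 fold change 1.21, SE 0.08, edgeR adjusted p = 2.30e-15). CYP4F3, which inactivates leukotriene B4, had 15.8 and 16.9 CPM in minus Dox and 25.4 and 27.1 CPM in plus Dox (0.68, SE 0.08, edgeR adjusted p = 7.34e-09). CYP4F12 had 5.38 and 5.62 CPM in minus Dox and 8.52 and 10.6 CPM in plus Dox (0.79, SE 0.13, edgeR adjusted p = 3.28e-06). These 3 genes thus had every plus Dox library above every minus Dox library, and their calls held in all 12 settings. CYP4F22, which makes omega-hydroxy ceramide precursors of the skin barrier, stood near the detection floor, with 6 and 0 counts in minus Dox, against 16 and 24 in plus Dox. Its ratio was 6.92 (95% exact binomial interval 2.91 to 19.96, counting error only), and the call was lost in DESeq2 (adjusted p = 0.224), without minus Dox replicate 2 (edgeR 0.0855, log2 fold change 1.69 against 2.73) and without plus Dox replicate 2 (edgeR 0.0660). Without minus Dox replicate 1 the other minus Dox library has no count, and the fitted value of 7.37 is no bound. CYP4F2, a vitamin K and leukotriene hydroxylase, had 8 and 3 counts in minus Dox, against 19 and 10 in plus Dox and did not pass (edgeR adjusted p = 0.0637). CYP4F2 is in part hard to separate from CYP4F3, as 11.9% of the 50-base windows of its transcripts also occur there. Of 22 other genes tested inside or within 500 kb of the CYP4F genes, 5 were higher, 5 lower and 12 did not pass. Over all genes tested 28.4% were higher and 28.4% lower.

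Promoters of CYP4F11 and CYP4F3 are shown because both genes rose and the sequence upstream of the CYP4F11 start shown resembles that of CYP4F3. Each is the 250 bases before a RefSeq start site in GRCh38.p14, 5′ to 3′, on the minus strand at chr19:15934530-15934779 for CYP4F11 and on the plus strand at chr19:15641062-15641311 for CYP4F3. Capitals mark letters that fit TGANTCA, the AP-1 site with any middle base.
CYP4F11: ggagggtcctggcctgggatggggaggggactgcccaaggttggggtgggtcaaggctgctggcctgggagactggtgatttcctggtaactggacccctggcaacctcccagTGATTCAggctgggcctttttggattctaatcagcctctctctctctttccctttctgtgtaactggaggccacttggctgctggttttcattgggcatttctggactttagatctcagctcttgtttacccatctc
CYP4F3: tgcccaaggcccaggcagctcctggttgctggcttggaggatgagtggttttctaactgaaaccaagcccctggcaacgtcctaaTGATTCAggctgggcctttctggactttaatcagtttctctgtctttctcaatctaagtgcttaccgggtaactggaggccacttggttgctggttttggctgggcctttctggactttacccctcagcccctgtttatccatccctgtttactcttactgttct
Over 289 aligned columns 60.9% of bases were identical. The match lies at −137 from the start of CYP4F11 and at −165 from that of CYP4F3 (bases, negative before the start), and in both its middle base is T, where the usual AP-1 site has C or G. Across 35116 RefSeq promoter windows of 300 bases (250 before and 50 after the start), 7.71% hold TGANTCA and 4.95% hold TGACTCA, which read on both strands is the usual site and falls within TGANTCA. The CYP4F11 start shown lies inside the annotated gene. The other listed start, at the 5′ end of that gene (15934867), has no TGANTCA in its window. Its upstream bases were 46.2% identical to those of CYP4F3 over 299 aligned columns. Such a match is a description and not a binding site.

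P450s that oxidise cholesterol and its products rose in 3 of 4 tested members, with 0 lower, where 28.4% of all genes tested rose. Their median log2 fold change was 1.41. CYP46A1 and CYP27A1 reached the filter's minimum in plus Dox only, and of the 2 others 1 rose. CYP7B1, the oxysterol hydroxylase of the alternative route to bile acids, had 3.04 and 2.59 CPM in minus Dox and 6.73 and 5.72 CPM in plus Dox, 2.22-fold higher (log2 fold change 1.15, SE 0.17, edgeR adjusted p = 2.82e-07). The other 3 stood near or below 1 CPM. CYP46A1, the cholesterol 24-hydroxylase of brain, had 10 and 13 counts in minus Dox, against 47 and 24 in plus Dox (1.66, SE 0.47, edgeR adjusted p = 0.00291). The mitochondrial sterol 27-hydroxylase CYP27A1 had 6 and 4 counts in minus Dox, against 16 and 31 in plus Dox, a ratio of 4.88 (95% exact binomial interval 2.43 to 10.8, edgeR adjusted p = 0.00162). In both genes each plus Dox library was above each minus Dox library, where 77.0% of all genes tested had groups apart in either direction. Without plus Dox replicate 1 the call of CYP46A1 was lost (log2 fold change 1.14, edgeR adjusted p = 0.190), as was that of CYP27A1 without plus Dox replicate 2 (1.66 against 2.26, edgeR adjusted p = 0.170). CYP39A1, a 24-hydroxycholesterol hydroxylase, had 0.443 and 0.720 CPM in minus Dox and 1.11 and 0.984 CPM in plus Dox and did not pass (edgeR adjusted p = 0.0746). The remaining 2 genes of the group were at 0 in all libraries.

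Xenobiotic P450s of families 1 to 3 were mostly below the filter, with 6 of 18 tested, 4 at 0 in all libraries and 8 with few counts. None rose, also at an unadjusted p under 0.05 in edgeR or in DESeq2, and 2 of the 6 fell, against 28.4% of all genes tested. CYP3A5, a drug-metabolising enzyme known for expression in lung (ENSG00000106258, chromosome 7, 99648194 to 99680026), had 12.7 and 11.2 CPM in minus Dox and 7.18 and 6.11 CPM in plus Dox, and fell by 0.84 on the log2 scale (SE 0.12, edgeR adjusted p = 1.90e-07). CYP2S1, an enzyme of epithelia, had 79.0 and 85.0 CPM in minus Dox and 75.6 and 74.5 CPM in plus Dox, and fell by 0.13 on the log2 scale (SE 0.05, edgeR adjusted p = 0.0341), a value that turned to 0.088 with library size only. That small call was also lost in DESeq2 (adjusted p = 0.0906). CYP2W1, known from embryonic and tumour tissue, had 30 and 34 counts in minus Dox, against 13 and 18 in plus Dox and did not pass (edgeR adjusted p = 0.0576). CYP2A6, the nicotine oxidase, had 4 and 6 counts in minus Dox and 11 in both plus Dox libraries and did not pass, and 32.0% of its 50-base windows occur in other genes. CYP2E1, the ethanol oxidase, had 20 and 14 counts in minus Dox, against 8 and 27 in plus Dox. CYP3A7, the fetal liver form, had 11 and 10 counts in minus Dox, against 11 and 2 in plus Dox, and the groups overlapped in both genes. CYP3A7 shares 41.7% of its exon bases with other genes and is uncertain, and 23.9% of those of CYP2E1 lie opposite other genes.

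Below the filter the counts do not allow a direction. CYP2J2, which epoxidises arachidonic acid, had 7, 5, 12 and 4 counts, where minus Dox comes first in each series of 4. CYP3A4, the main drug oxidase of adult liver, had 0, 1, 2 and 2 counts, where CYP3A5 had 205 to 429. CYP2C8 had 7, 0, 3 and 6 counts and CYP2D6 0, 4, 3 and 3. Among the steroid hormone P450s, aromatase CYP19A1 had 6, 0, 6 and 10 counts, the 17-hydroxylase CYP17A1 had 4, 3, 12 and 3, and the side-chain cleavage enzyme CYP11A1 had 0, 3, 0 and 0. None of the 6 genes of that group was tested. CYP2A7 had 4, 1, 3 and 0 counts, CYP2C18 had 5, 5, 0 and 4, and CYP2F1, known from lung, had 3, 6, 0 and 5. CYP4X1 had 4, 1, 5 and 6 counts, CYP4Z1 had 0, 2, 1 and 1, and CYP3A43 had 1, 0, 0 and 0. The orphan enzyme CYP20A1, which passed the filter, had 421 and 399 counts in minus Dox, against 397 and 369 in plus Dox, with no difference past the threshold (log2 fold change −0.05, SE 0.11).

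**Figure D2:**
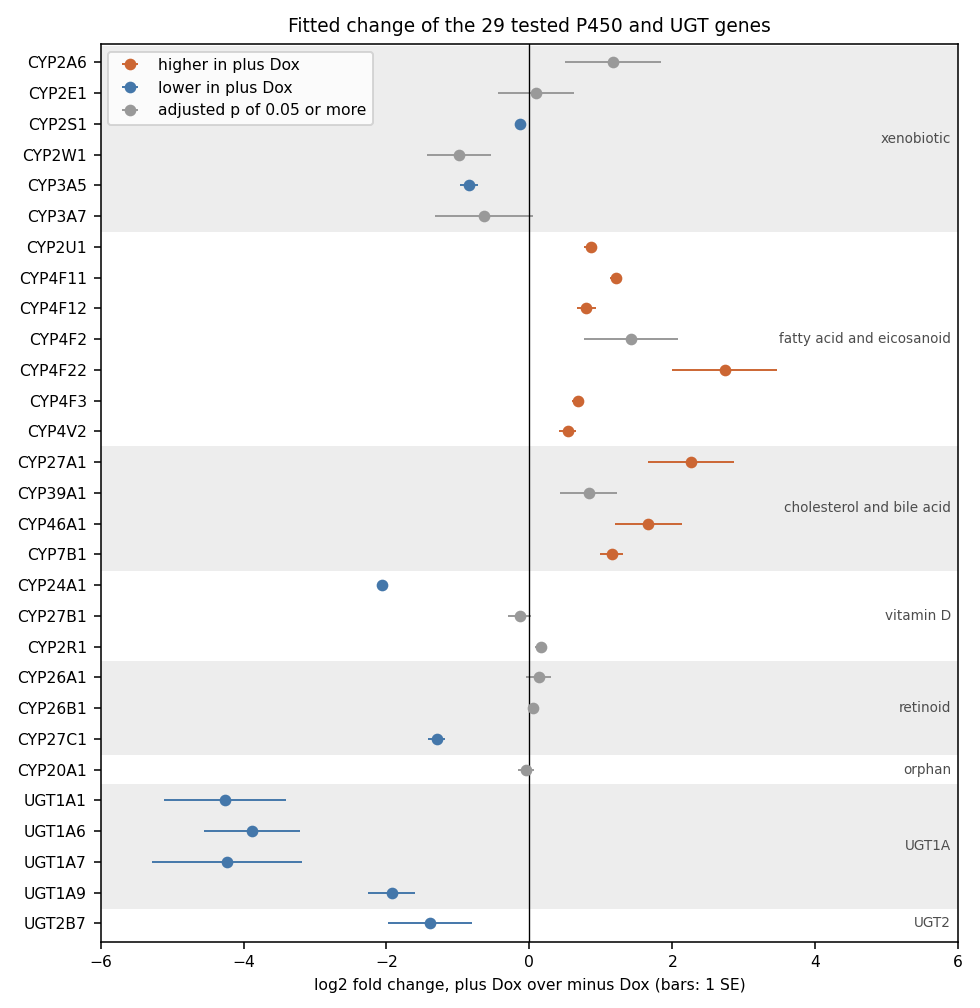
Fitted log2 fold change, plus Dox over minus Dox, of the 29 tested members, with bars of 1 SE. Orange genes were higher and blue genes lower past the threshold, and grey genes did not pass. The fatty acid and cholesterol P450s lie to the right of 0, and the 5 UGT genes lie to the left, between −4.27 and −1.39.

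The UGT1A genes tested fell, all 4 of them, where 28.4% of all genes tested fell. In edgeR 0 were higher, also at an unadjusted p under 0.05, and in DESeq2 0 were higher. Together the counts of the 9 UGT1A genes were 136 and 146 in minus Dox, against 19 and 25 in plus Dox. Summed to 1 feature before the fit, they went from 3.96 ± 0.0904 to 0.642 ± 0.145 CPM (SD, n = 2), and fell by 2.62 on the log2 scale (SE 0.26, edgeR adjusted p = 7.26e-11). Every plus Dox library lay far below every minus Dox library, at levels of few counts.

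How reads on common exons were counted bears on that level. In GENCODE 29, 1478 exon bases are common to all 9 UGT1A genes, and at most 59.4% of the exon bases of a gene are in no other UGT1A gene. How reads on the common exons were assigned is not given in the sources used here. UGT1A4, UGT1A5, UGT1A8 and UGT1A10 also hold the common bases and had 0 counts in every library. Reads on those bases were thus not credited to every UGT1A gene, and the summed counts may leave them out. The counts of a single UGT1A gene are therefore uncertain.

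UGT1A9 (ENSG00000241119, chromosome 2, 233671853 to 233773300), which conjugates phenols and many drugs, was the most abundant, with 68 and 79 counts in minus Dox, against 17 and 20 in plus Dox. It went from 2.01 and 2.11 CPM to 0.483 and 0.596 CPM, and fell by 1.93 on the log2 scale (SE 0.33, edgeR adjusted p = 4.74e-06). It was the only UGT gene with the filter's minimum in both groups. UGT1A6, an enzyme for small planar phenols, had 41 and 23 counts in minus Dox and 2 in both plus Dox libraries, a ratio of 15.4 (95% exact binomial interval 5.74 to 58.3, edgeR adjusted p = 6.81e-06). UGT1A1, the bilirubin enzyme, had 14 and 31 counts in minus Dox, against 0 and 2 in plus Dox, with a ratio of 21.7 (5.67 to 185) and an edgeR adjusted p of 5.46e-05. UGT1A7, found in the upper airway and digestive tract, had 12 counts in both minus Dox libraries and 0 and 1 in plus Dox, a ratio of 23.1 (3.77 to 951). These last 3 genes reached the minimum in minus Dox only, and exons opposite other genes make up 20.5% of UGT1A6. The fitted log2 fold change of UGT1A1 was −4.27, and −3.31 without plus Dox replicate 1 and −3.68 without minus Dox replicate 2, with the call kept. That of UGT1A7 was −4.23 (edgeR adjusted p = 7.78e-04), and −3.35 without plus Dox replicate 1, where the call was lost (0.0579). Without plus Dox replicate 2 neither UGT1A1 nor UGT1A7 has a count in plus Dox, so that fitted values there (−7.48 and −6.60) are no bounds. UGT1A3 had 1, 1, 0 and 0 counts, and the other 4 UGT1A genes were at 0. Of 7 other genes tested inside or within 500 kb of the UGT1A genes, 0 were higher, 4 lower and 3 did not pass. Over all genes tested 28.4% were higher and 28.4% lower.

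**Figure D3:**
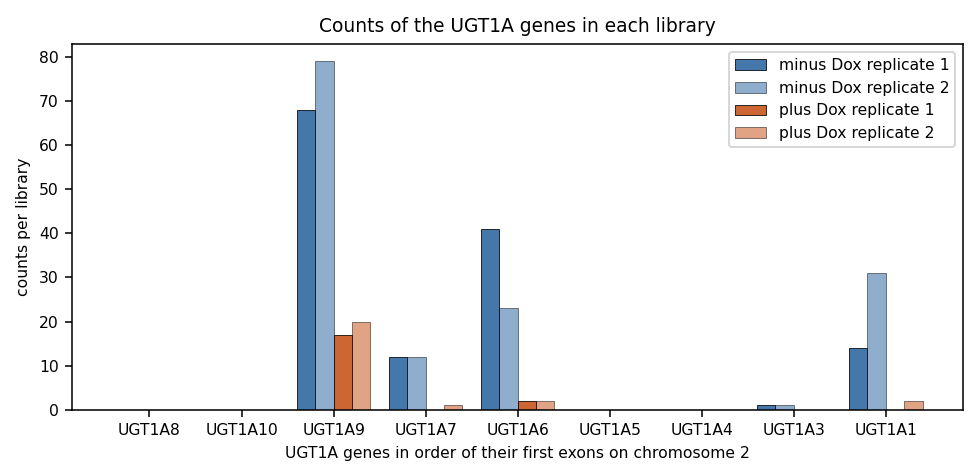
Counts of the 9 UGT1A genes in each library, in the order of their first exons on chromosome 2; blue bars are minus Dox and orange bars plus Dox, with replicate 2 paler. The counts of UGT1A9, UGT1A7, UGT1A6 and UGT1A1 are higher in both minus Dox libraries than in either plus Dox library.

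Promoters of 3 UGT1A genes are shown because the genes fell together while each starts at an exon of its own. All are the 250 bases before the RefSeq start on the plus strand of GRCh38.p14, at chr2:233671648-233671897 for UGT1A9, chr2:233681651-233681900 for UGT1A7 and chr2:233692640-233692889 for the second of 2 listed starts of UGT1A6. Capitals mark GCGTG (written CACGC on the other strand), the core of the xenobiotic response element bound by AHR and ARNT, in UGT1A9 and UGT1A7. In UGT1A6 they mark TGACNNNGC, the core of the antioxidant response element, and ATTAAC, the other strand of GTTAAT, a half-site of HNF1 factors.
UGT1A9: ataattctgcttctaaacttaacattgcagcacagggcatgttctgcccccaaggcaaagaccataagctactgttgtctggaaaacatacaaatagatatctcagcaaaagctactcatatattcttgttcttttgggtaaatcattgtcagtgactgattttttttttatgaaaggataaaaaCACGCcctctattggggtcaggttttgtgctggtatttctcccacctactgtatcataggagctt
UGT1A7: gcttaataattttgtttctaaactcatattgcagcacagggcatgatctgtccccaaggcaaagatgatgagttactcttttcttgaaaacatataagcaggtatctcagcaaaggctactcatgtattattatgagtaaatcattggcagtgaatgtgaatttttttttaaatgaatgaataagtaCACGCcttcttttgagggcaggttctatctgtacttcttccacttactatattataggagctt
UGT1A6: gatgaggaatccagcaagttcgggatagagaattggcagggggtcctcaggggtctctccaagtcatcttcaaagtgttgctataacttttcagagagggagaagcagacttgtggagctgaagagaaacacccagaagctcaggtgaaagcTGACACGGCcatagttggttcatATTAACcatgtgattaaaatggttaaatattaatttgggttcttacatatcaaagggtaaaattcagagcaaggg
UGT1A9 and UGT1A7 were identical in 77.6% of 259 aligned columns, with GCGTG at −65 and −63 from the start. The UGT1A6 sequence shown was identical to them in 47.2% and 48.7% of aligned columns. At the first listed start of UGT1A6, not shown, the window holds GCGTG at −200 and neither TGACNNNGC nor GTTAAT. The windows of 300 bases hold GCGTG in 36.5%, TGACNNNGC in 13.3% and GTTAAT in 6.88% of all 35116 promoters, on either strand. RefSeq windows matched 24 of the 29 tested members, without CYP46A1, CYP7B1, CYP4F12, CYP24A1 and CYP27B1. GTTAAT was found in 3 of the 8 members that fell and have a window (UGT1A1, UGT1A6 and CYP3A5) and in 0 of the 6 that rose. TGANTCA was found in 0 of those 8 and in 2 of those 6, the CYP4F genes above, and GCGTG in 4 of 8 and 3 of 6. TGACNNNGC, marked in UGT1A6, was found in 1 of those 8 and in 3 of those 6 (CYP4V2, CYP4F22 and CYP4F11). Of the 10 others, CYP3A7 held both TGANTCA and GTTAAT. These letters are descriptions of small sets and not sites.

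Of the UGT2 family only UGT2B7 was tested, an enzyme that conjugates morphine and steroids (ENSG00000171234, chromosome 4, 69051363 to 69112987). It had 14 and 22 counts in minus Dox, against 5 and 8 in plus Dox, a ratio of 2.67 (95% exact binomial interval 1.38 to 5.49) with an edgeR adjusted p of 0.0439. This call held in 3 of 11 settings and was lost in DESeq2 (adjusted p = 0.180), with library size only (edgeR 0.0867), with no filter (0.0740), with a replicate block (0.0563) and without any 1 library (0.0951 to 0.330). With the counts of all 7 UGT2B genes summed, 14 and 23 in minus Dox, against 7 and 8 in plus Dox, the edgeR adjusted p was 0.0645. UGT2B7 reached the minimum in minus Dox only. Of the other UGT2 genes, UGT2A3 had 4, 0, 0 and 0 counts and UGT2B11 0, 1, 2 and 0, and 7 of 10 were at 0. UGT3A2, a transferase that uses other sugars, had 0, 0, 2 and 0 counts.

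The partners of these enzymes moved in both directions. Of 10 genes for electron transfer and heme handling, 3 rose, 4 fell and 3 did not pass, with a median log2 fold change of −0.13. Their share past the threshold was 70.0%, against 56.9% of all genes and 65.5% of protein-coding genes tested. With library size only, 5 were higher and 2 lower. POR, the reductase of all microsomal P450s, had 166 and 172 CPM in minus Dox and 160 and 167 CPM in plus Dox, overlapping values that did not pass (−0.05), and scaled by library size alone it was called higher (0.17). Cytochrome b5 (CYB5A), which assists some P450s, fell from 72.2 ± 1.81 to 45.8 ± 0.987 CPM (SD, n = 2), and the outer mitochondrial form CYB5B fell by 0.31 on the log2 scale. The mitochondrial ferredoxin FDX1 rose by 0.40 and the b5 reductase CYB5R3 by 0.13. Of the heme-binding membrane proteins, PGRMC1 rose by 0.23 and PGRMC2 fell by 0.23 on the log2 scale, a call lost with library size only (−0.01).

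Supply and release of glucuronic acid was tested in 5 genes, of which 2 rose, 2 fell and 1 did not pass. This is 80.0% past the threshold in a small list, against 65.5% of protein-coding genes tested. UGDH, which oxidises UDP-glucose to UDP-glucuronic acid, had 746 and 717 CPM in minus Dox and 505 CPM in both plus Dox libraries, a log2 fold change of −0.53 (SE 0.03, edgeR adjusted p = 1.16e-15). It was far more abundant than any UGT gene in both groups, also per kilobase of exon. Values were 181 CPM per kb in minus Dox and 125 in plus Dox, against 0.852 and 0.223 for UGT1A9. The length used for UGT1A9 is all 2416 exon bases, of which 937 are in no other UGT1A gene. UGP2, which makes UDP-glucose, rose by 0.18, and SLC35D1, a carrier of UDP-sugars into the endoplasmic reticulum, rose by 0.40 on the log2 scale. SLC35B1, a carrier of ATP into the same compartment, fell by 0.23, a call lost with library size only (−0.02). GUSB, the lysosomal enzyme that removes glucuronic acid, did not pass.

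Transcription factors known to control these enzymes fell in 10 of 18 tested members, with 3 higher and 5 not past. Their share past the threshold was 72.2%, against 65.5% of protein-coding genes tested, and their median log2 fold change was −0.27. With library size only, 6 were higher and 7 lower. The liver and gut factors NR5A2 and HNF4A fell by 1.39 and 0.82 on the log2 scale, the glucocorticoid receptor NR3C1 by 0.51 and CEBPB by 0.41. HNF4A had 77.3 and 80.0 CPM in minus Dox and 43.4 and 45.8 CPM in plus Dox, with no overlap. The 3 that rose were AHR (11.3 ± 0.803 to 22.3 ± 1.47 CPM, SD, n = 2), NFE2L2 (by 0.36) and PPARA (by 0.53), which sense aryl hydrocarbons, electrophiles and fatty acids. The drug receptor NR1I2 had 11, 2, 1 and 3 counts and was not tested. No link between these factors and the members was tested.

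Other enzymes of drug metabolism were tested in 13 genes, of which 6 rose, 3 fell and 4 did not pass. The 69.2% past the threshold is near the 65.5% of protein-coding genes tested, and the median log2 fold change was 0.24. The thiopurine methyltransferase TPMT rose from 15.9 ± 1.28 to 27.7 ± 1.16 CPM (SD, n = 2). The arylamine acetyltransferase NAT1 rose by 0.85, the phenol sulfotransferase SULT1A1 by 0.95, the carboxylesterase CES3 by 0.49 and the flavin monooxygenase FMO4 by 1.14 on the log2 scale. With library size only, 8 genes of the list were higher and 0 lower. Differences between these lists were not tested.

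**Figure D4:**
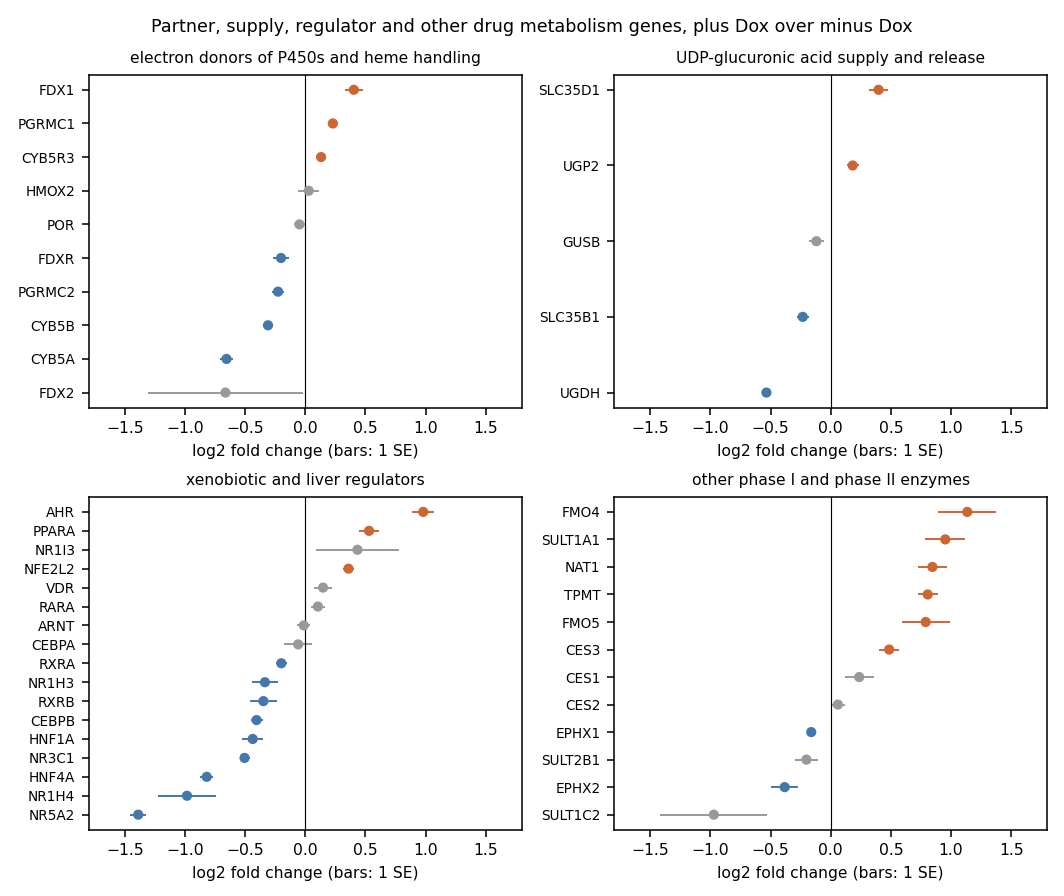
Fitted log2 fold change, plus Dox over minus Dox, of tested genes of 4 lists, with bars of 1 SE; orange is higher, blue is lower and grey is not past the threshold. Regulators lie mostly to the left of 0, down to −1.39 for NR5A2, and the other phase I and phase II enzymes mostly to the right, up to 1.14 for FMO4.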

How the data were processed

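PolyA RNA of 4 A549 libraries was made with a stranded kit and sequenced as paired ends, per the labels' protocols. Each library has 1 deposited table of raw counts by Ensembl identifier. The submitters' processing notes name DRAGEN, cutadapt 4.0, STAR 2.7.10b, featureCounts 2.0.3, DESeq2 2.11.40.7 and hg38. The annotation release, the strand setting and the treatment of reads on shared exons are details not given in the sources used here.

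Symbols, types and exons came from a gene name table and GENCODE 29, where 57447 of 58051 identifiers were found. Counts were tested with edgeR 4.0.16 (R 4.3.3, limma 3.58.1): filterByExpr (10 counts at the median library in 2 libraries, 15 in total), TMM, glmQLFTest without a replicate block, and Benjamini-Hochberg adjustment over 18046 genes. CPM values are TMM-scaled. Code was tested on simulated counts. Alternatives were 3 scalings, 2 filters, DESeq2 1.42.0, a replicate block, each library left out, and summed UGT counts. Intervals and floors cover counting error only.

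Members and lists were chosen with earlier results of these data known. Every tested member was named, members below the filter were named by their counts, and from each list the 6 genes with the lowest adjusted p were named. A few genes that this rule names are not reported here. POR, VDR, NFE2L2, PPARA, NR1I2 and the marker genes named were chosen after their values were seen. CPM per kilobase used the annotated exon length. Replicate libraries correlated at r = 0.998 (log2 CPM, across genes) and differed by more than sampling noise. Each was counted as 1 sample, although that spread does not show whether they are separate cultures, which the labels do not say.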

Additional observations from a re-analysis of the deposited data

How the results depend on the processing

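The settings varied scaling, filter, tool, replicate block and the libraries used. P450 genes higher in plus Dox, 9 as reported, numbered 7 to 13 over the 11 alternatives, and those lower, 4 as reported, 3 or 4. UGT genes higher were 0 throughout, with 0 also in DESeq2. UGT genes lower, 5 as reported, were 1 when at least 1 CPM in 2 libraries was required, which removes 4 of the 5, and 3 to 4 with 1 library left out (3 without either minus Dox library or plus Dox replicate 1). With library size only, 7862 genes of all were higher and 2927 lower, against 5133 and 5132, so that 72.9% of calls were higher instead of 50.0%, and leaving out 1 library gave 4246 to 4953 and 4318 to 5170. Of 305 fits of single members, 280 kept the call or its absence, 18 lost the call and 6 gained one. In 1 the direction turned and the call was lost: CYP2S1 at 0.088 with library size only (edgeR adjusted p = 0.146). Direction was not compared where neither fit passed, so that the 280 include changes of sign. CYP20A1, for example, went from −0.05 to 0.17 with library size only. CYP2S1 also lost its call when minus Dox replicate 2 or either plus Dox library was left out (edgeR adjusted p 0.145 to 0.217). CYP39A1 and CYP4F2 passed with library size only (edgeR adjusted p 0.0225 and 0.0296), and CYP39A1 with the 1 CPM filter (0.0374). Of 297 fits of 27 partner genes, tried after the data were seen, 287 kept the call or its absence, 7 lost the call and 2 gained one. POR turned to 0.17 with library size only and was called higher there. Here too, direction was not compared where neither fit passed. Same-numbered libraries did not deviate together (r = 0.0175 across genes). With so few libraries this cannot exclude that the numbers mark a shared culture or day, which the labels do not say. With the replicate block, 9 P450 genes were higher and 4 lower, 4 UGT genes were lower and 0 higher, and 5219 genes of all were higher and 5195 lower. Where 1 library was left out, the lone one was assumed to vary like the other group. Low counts limit 13 tested members, which had a mean below 1 CPM. The causes of these differences were not tested unless stated.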
